A study of Mus musculus with 2 samples.

Results

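The 9 interferon-stimulated genes *Isg15*, *Ifit1*, *Ifit2*, *Ifit3*, *Rsad2*, *Oasl2*, *Irf7*, *Ifi47* and *Rtp4* were followed through mouse bone marrow. They were chosen by name, as the rows carrying these symbols, and make up 9 of 32285 genes in the single-cell count matrices of the study. All 9 symbols were found in both matrices, once each.

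The study profiled marrow from a control (Ctrl) and a *Map4k4* conditional knockout (cKO) by droplet 3′ single-cell RNA-seq, to follow how loss of the kinase MAP4K4 affects neutrophil differentiation. There was 1 library per group, from mice 13 to 14 weeks old, and each library joined 2 parts of magnetically enriched c-Kit+ progenitors with 3 parts of marrow freed of red cells by lysis. The cKO mice carried floxed *Map4k4* alleles and the Mx1-Cre transgene on a C57BL/6 background, and deletion was induced by intraperitoneal poly I:C, a mimic of viral double-stranded RNA, weeks before the experiments. Controls were littermates whose genotype the methods print as Mx1-Cre *Map4k4*-/-. Whether they also received poly I:C, and how many mice of which sex were in each library, is not given in the sources used here. The model bears directly on the genes described, because the *Mx1* promoter that drives Cre is itself switched on by interferon and acts in many marrow cell types, and because poly I:C induces interferon. Any effect of *Map4k4* loss, of Cre or poly I:C, and of the individual mice cannot be told apart here.

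Type I interferons bind a receptor of IFNAR1 and IFNAR2, the kinases JAK1 and TYK2 pass the signal on by phosphorylation, and a complex that contains STAT2 and IRF9 binds interferon-stimulated response elements in the promoters of target genes. The products of these genes block viral translation and replication or feed back on the pathway. Maturing neutrophils and monocytes are known to carry part of this programme without infection, and interferon also drives dormant haematopoietic stem cells into cycle.

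The members stood on 7 chromosomes of GRCm38. *Isg15* (ENSMUSG00000035692), which encodes a ubiquitin-like protein attached to other proteins, spans chr4:156199424-156200818 on the minus strand in 2 exons. The IFIT genes encode RNA-binding proteins that hold back translation of foreign RNA, and they neighbour each other on the plus strand of chromosome 19. *Ifit2* (ENSMUSG00000045932) spans chr19:34550694-34576419, *Ifit3* (ENSMUSG00000074896) chr19:34583531-34588731 and *Ifit1* (ENSMUSG00000034459) chr19:34640871-34650009. *Rsad2* (ENSMUSG00000020641), the gene for the antiviral enzyme viperin, spans chr12:26442746-26456452 on the minus strand. *Oasl2* (ENSMUSG00000029561), of the oligoadenylate synthetase-like family, spans chr5:114896936-114912234. *Irf7* (ENSMUSG00000025498), a transcription factor that amplifies interferon production, spans chr7:141262706-141266481 on the minus strand. *Ifi47* (ENSMUSG00000078920), an interferon-inducible GTPase, spans chr11:49076587-49096974, and *Rtp4* (ENSMUSG00000033355), a chaperone of membrane receptors, spans chr16:23520291-23614222, both on the plus strand.

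Reads near the 3′ end decide these counts, and 2 members share sequence there with a near copy or an overlapping gene. *Ifit3* shared 24.0% of the 31-base words of its last 500 transcript bases with *Ifit3b*, and *Ifi47* shared 5.69% with *Olfr56*, which overlaps it on the same strand, so both counts carry that uncertainty. *Isg15* shared 10% and *Ifit1* 3.43% with unrelated genes, and the other 5 members shared none. *Rtp4* also overlaps the transcript *Gm45338* on its own strand. On the other strand *Irf7* overlaps *Phrf1*, *Ifi47* the pseudogene *Gm12188* and *Rtp4* the gene *Masp1*.

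The bases just before the transcription start are shown for *Isg15*, *Ifit1*, *Ifit3* and *Rsad2*, since these hold the core letters of the interferon response element, and for *Ifi47*, since it does not and its levels followed another order of cell types. Each is the 250 bases before a RefSeq start in GRCm38.p6, written 5′ to 3′ on the gene's strand, with matches to GAAA, any 2 bases and GAAA again, searched on both strands, in capitals. They lie at chr4:156200819-156201068 (*Isg15*, minus), chr19:34640639-34640888 (*Ifit1*, plus), chr19:34583279-34583528 (*Ifit3*, plus), chr12:26456453-26456702 (*Rsad2*, minus) and chr11:49076337-49076586 (*Ifi47*, plus).
Isg15: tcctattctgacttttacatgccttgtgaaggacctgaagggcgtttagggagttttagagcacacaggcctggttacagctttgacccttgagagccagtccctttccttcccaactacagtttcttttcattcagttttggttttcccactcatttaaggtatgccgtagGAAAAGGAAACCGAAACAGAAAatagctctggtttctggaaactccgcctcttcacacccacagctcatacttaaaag
Ifit1: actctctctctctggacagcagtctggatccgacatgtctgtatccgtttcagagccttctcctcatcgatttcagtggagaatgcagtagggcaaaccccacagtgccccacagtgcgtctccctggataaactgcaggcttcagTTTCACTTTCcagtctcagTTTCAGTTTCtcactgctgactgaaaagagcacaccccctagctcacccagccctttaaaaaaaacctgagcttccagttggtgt
Ifit3: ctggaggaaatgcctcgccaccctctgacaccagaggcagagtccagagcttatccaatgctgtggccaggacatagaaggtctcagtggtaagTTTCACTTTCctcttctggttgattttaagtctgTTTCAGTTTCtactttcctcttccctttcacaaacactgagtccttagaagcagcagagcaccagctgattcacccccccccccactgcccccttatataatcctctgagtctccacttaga
Rsad2: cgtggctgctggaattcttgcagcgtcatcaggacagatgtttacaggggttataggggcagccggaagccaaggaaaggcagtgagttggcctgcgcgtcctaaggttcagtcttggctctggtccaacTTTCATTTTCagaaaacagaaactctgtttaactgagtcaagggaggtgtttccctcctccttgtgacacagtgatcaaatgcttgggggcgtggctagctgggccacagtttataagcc
Ifi47: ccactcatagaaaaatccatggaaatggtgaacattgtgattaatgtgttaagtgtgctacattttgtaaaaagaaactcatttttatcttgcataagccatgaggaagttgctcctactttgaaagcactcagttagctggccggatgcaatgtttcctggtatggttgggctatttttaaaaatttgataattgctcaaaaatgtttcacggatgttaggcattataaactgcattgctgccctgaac

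In windows from 250 bases before to 50 bases after the start, this pair of GAAA with a gap of 2 bases was found in 4 of the 8 members with a window. *Isg15* had 3 matches that overlapped each other on the strand shown, *Ifit1* and *Ifit3* had 2 each on the other strand, and *Rsad2* had 1 on the other strand. *Ifit2*, *Oasl2*, *Irf7* and *Ifi47* had none, and *Rtp4* had no window. Among the members without a match, the levels of *Ifit2* and *Ifi47* followed one order of cell types and those of *Oasl2* and *Irf7* another, as given below. The same letters were in 3.44% of all 32851 windows and in 3.99% of 27025 gene symbols. Of 47 further interferon-stimulated genes listed for the comparison, 37 had a window and 18 held the motif. A match describes letters, not a bound site.

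The Ctrl matrix held 10220 barcodes and 71527701 unique molecular identifiers (UMIs, counts of single captured transcripts), and the cKO matrix 6872 barcodes and 64393950 UMIs. Between 200 and 9000 genes per cell and a mitochondrial share of no more than 30% were required, which left 9965 Ctrl cells with a median of 4111 UMIs and 6718 cKO cells with a median of 6243.5. Marker genes placed 9031 and 5780 of them in 16 classes, used here as marker-gated types. All markers were over 2-fold higher in their own class than elsewhere, except 1 of 6 for mature neutrophils in both libraries and 1 of 6, with no UMI, for the 5 conventional dendritic cells of cKO. The same markers placed the cells, so this describes the classes and does not test them. Neutrophil precursors and immature neutrophils, which share a marker set, were checked jointly. *Map4k4* itself stood at 72.6 CPM (UMIs of a gene per 1e6 UMIs) in Ctrl and 64.3 in cKO. It was at 165 and 131 in mature neutrophils and 90.5 and 72.3 in immature ones, at 120 and 119 in stem and multipotent progenitors and 164 and 161 in monocytes, and higher in cKO in neutrophil progenitors (18.1 and 24.1). A 3′ count can lie outside the deleted exons and is no check of the deletion. *Xist*, transcribed from the inactive X chromosome of females, stood at 905 CPM in Ctrl and 477 in cKO, and this marker of female cells therefore differed between the libraries. Some 3010 barcodes were in both matrices, 29.5% of Ctrl and 43.8% of cKO barcodes. Of the 2554 shared barcodes gated in both, 13.6% fell in the same class, against 13.4% given by the class sizes alone.

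The classes that form the neutrophil line were haematopoietic stem cells and multipotent progenitors (HSC/MPP, 510 Ctrl and 143 cKO cells), neutrophil progenitors (ProNeu, 1158 and 1446), neutrophil precursors (PreNeu, 1023 and 747), immature neutrophils (imNeu, 1342 and 1151) and mature neutrophils (mNeu, 1741 and 1512). Monocyte-like cells numbered 794 and 373. Depth differed between the libraries within a class, with median UMIs of 15417.5 and 2068 in ProNeu and 2366 and 6135.5 in mNeu. Of the ProNeu cells, 480 in cKO and 58 in Ctrl lay in a cluster with few UMIs per cell. Its 10 leading genes were headed by *AY036118*, *Gm42418* and *Lars2*, included immunoglobulin, mitochondrial and haemoglobin transcripts, and held no ProNeu marker. Most Ctrl mNeu cells lay in clusters 21, 22 and 23, and most cKO mNeu cells in clusters 24, 31 and 38. In other lineages cKO cells were few, with under 50 in 9 of the 10 other classes. Values below are CPM of the summed UMIs of a class with 95% exact Poisson intervals, shares of cells carry exact Clopper-Pearson intervals, and ratios carry exact binomial intervals. All of them cover counting error only, and with 1 library per group no test between groups can be made.

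In Ctrl, the summed members were lowest in PreNeu and highest in mNeu along the neutrophil line. Their summed level was 179 CPM (169 to 191) in HSC/MPP, 82.8 (78.7 to 87.2) in ProNeu, 41.7 (37.9 to 45.7) in PreNeu, 84.0 (77.4 to 90.9) in imNeu and 636 (614 to 660) in mNeu. In cKO the same classes stood at 170 (153 to 190), 64.2 (60.4 to 68.1), 28.2 (25.2 to 31.3), 46.6 (42.7 to 50.7) and 429 (416 to 442). Both libraries thus had a trough at PreNeu and a peak at mNeu, and in both the neighbouring classes in this line had intervals that did not overlap. Monocyte-like cells were at 239 (228 to 251) and 210 (197 to 224) CPM. Because UMIs are summed per class, a higher level can mean more cells with the transcript or more transcript per cell, which the shares below separate in part.

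**Figure D1:**
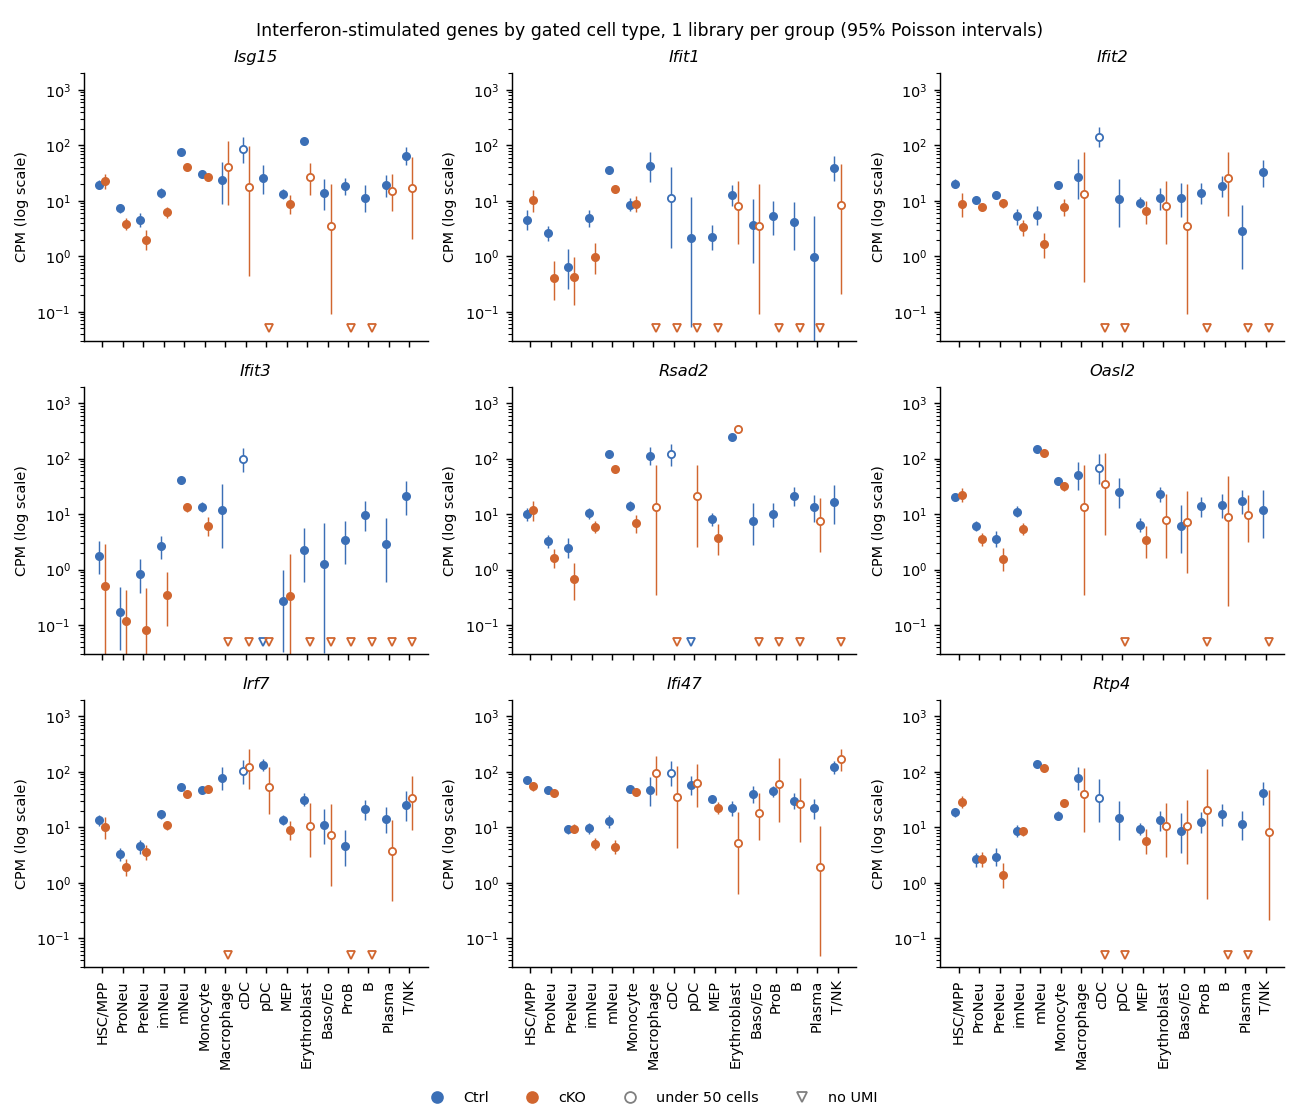
Level of each member in CPM (log axis) in the 16 gated cell types, Ctrl in blue and cKO in orange, with 95% exact Poisson intervals and 1 library per group. Hollow circles are types with under 50 cells and triangles at the foot mark no UMI. *Rtp4*, *Oasl2*, *Isg15* and *Ifit3* dip at PreNeu or ProNeu and peak at mNeu along the neutrophil line, *Ifi47* is high in HSC/MPP and ProNeu, and *Rsad2* stands highest in erythroblasts (245 CPM in Ctrl).

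Effectors of the antiviral state differed in where they were found. *Oasl2* stood at 20.5 CPM in Ctrl HSC/MPP, 3.61 in PreNeu and 150 (139 to 162) in mNeu, and *Rtp4* at 18.7, 2.96 and 142 (131 to 153). *Rsad2* went from 10.1 in HSC/MPP and 2.50 in PreNeu to 122 (112 to 132) in mNeu. *Isg15* was at 19.6, 4.54 and 74.7. All 4 peaked at mNeu within the line, with the trough at PreNeu for *Oasl2* and *Isg15*. In ProNeu *Rsad2* (3.21 CPM) and *Rtp4* (2.65 CPM) stood near their PreNeu levels, with overlapping intervals.

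Among the IFIT genes, *Ifit1* and *Ifit3* were highest in the last stage of the line, whereas *Ifit2* was not. *Ifit3* had 3 UMIs in 1158 Ctrl ProNeu cells (0.169 CPM), 9 UMIs in PreNeu (0.833 CPM) and 192 in mNeu (40.9 CPM, 35.3 to 47.1). *Ifit1* stood at 0.648 CPM in PreNeu and 35.8 (30.6 to 41.6) in mNeu. *Ifit2* ran the other way, at 20.3 CPM in HSC/MPP, 10.5 in ProNeu, 12.8 in PreNeu, 5.25 in imNeu and 5.54 (3.62 to 8.11) in mNeu. The intervals of *Ifit2* in imNeu and mNeu overlapped, as did those in ProNeu and PreNeu.

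*Ifi47*, the GTPase, followed *Ifit2* rather than the others. It stood at 70.5 CPM (63.8 to 77.8) in Ctrl HSC/MPP, 46.9 in ProNeu, 9.26 in PreNeu, 9.67 in imNeu and 13.0 (9.93 to 16.7) in mNeu, and the cKO library gave 55.5, 42.3, 9.47, 5.06 and 4.50. In both libraries HSC/MPP was highest of the neutrophil line, and *Ifi47* was detected in 45.9% (41.5 to 50.3) of Ctrl and 42.0% (33.8 to 50.5) of cKO HSC/MPP cells. Over 20 points (cell types of either library with at least 500000 UMIs), log2(CPM + 1) of *Ifit2* and *Ifi47* had a Pearson r of 0.78, while their r with the other 7 members lay between -0.12 and 0.24. The other 7 members had r from 0.66 (*Isg15* with *Ifit3*) to 0.92 (*Isg15* with *Rsad2*) among themselves. The points share 2 libraries and neighbouring stages, so these r are descriptions.

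*Irf7*, the amplifying transcription factor, was highest in plasmacytoid dendritic cell-like (pDC) cells of Ctrl, at 136 CPM (104 to 173), whose known role is to make type I interferon. It stood at 53.6 CPM (17.4 to 125) in the 14 pDC cells of cKO, an interval that overlaps the Ctrl one. Along the neutrophil line *Irf7* was at 13.4 CPM in Ctrl HSC/MPP, 3.32 in ProNeu, 4.54 in PreNeu, 17.3 in imNeu and 52.8 (46.4 to 59.8) in mNeu. In Ctrl pDC cells *Rsad2* and *Ifit3* had no UMI, at a floor of 3 UMIs or 6.36 CPM. The other members were detected there, with *Ifi47* at 57.2 CPM, *Isg15* and *Oasl2* at 25.4 each, *Rtp4* at 14.8, *Ifit2* at 10.6 and *Ifit1* at 2.12.

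Outside the neutrophil line, erythroblasts were set apart by *Rsad2*. The gene stood at 245 CPM (223 to 270) in Ctrl and 346 (289 to 411) in cKO erythroblasts, where 1 cell held 48.9% of the cKO UMIs. A *Rsad2* UMI was present in 100 of 446 Ctrl cells (22.4%, 18.6 to 26.6) and in 12 of 43 cKO cells (27.9%, 15.3 to 43.7), against 44 of 544 Ctrl megakaryocyte and erythroid progenitors (MEP, 8.09%), which were deeper, with median UMIs of 7806.5 against 1169.5. Thinned to 1000 UMIs per cell, the shares were 18.0% of 261 Ctrl and 23.1% of 26 cKO erythroblasts, against 0.210% of 477 Ctrl MEP cells. Of the 100 Ctrl erythroblasts with *Rsad2*, 47 also had another member and 36 had *Isg15*, while of the 346 without it 81 and 22 did, at median UMIs of 2848.5 and 1019. Erythroblast *Isg15* was 120 CPM (104 to 137) in Ctrl and 26.4 (12.7 to 48.6) in cKO. In T and NK cells *Ifi47* was the member that stood out across cell types, at 121 CPM (90.6 to 159) in Ctrl and 168 (103 to 260) in the 21 cKO cells. The Ctrl conventional dendritic cell-like class reached 762 CPM over the members, but 1 of its 18 cells held 78.9% of those UMIs.

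Free RNA in droplets can place mature neutrophil transcripts in other cells. *Retnlg*, which mature neutrophils express, was used as a gauge: its level in PreNeu was 1.44% of that in mNeu in Ctrl and 1.54% in cKO. *Retnlg* is also among the markers that placed cells in mNeu. Gating can therefore lower its level in the other classes, and the gauge with it. Carried over in that proportion, mNeu transcripts would give PreNeu 2.17 and 1.96 CPM of *Oasl2*, against 3.61 and 1.58 measured, and 1.76 and 1.01 CPM of *Rsad2*, against 2.50 and 0.665 measured. *Rtp4* was at 2.96 and 1.41 CPM measured against 2.04 and 1.84 carried. The PreNeu levels of these 3 genes were therefore near or under this background, and no difference is read from them. *Isg15* in PreNeu was above it, at 4.54 (3.356 to 5.998) and 1.99 (1.28 to 2.97) CPM against 1.08 and 0.639 carried. *Ifit2* and *Ifi47* in PreNeu stood far above it, at 12.8 and 9.26 CPM against 0.0799 and 0.188 in Ctrl. In imNeu the gauge gave 5.52% and 8.56%, though imNeu cells may transcribe *Retnlg* themselves. *Oasl2* (8.30 and 10.9 CPM carried against 11.0 and 5.41 measured) and *Rtp4* (7.82 and 10.2 against 8.70 and 8.47) were of that size or under it. So was *Ifit3*, with 2.26 and 1.13 CPM carried against 2.62 and 0.349 measured. In cKO the carried *Oasl2* and *Ifit3* lay above the upper limits of the measured levels, 6.94 and 0.894 CPM. The gauge was therefore too high for imNeu of cKO. In cKO *Ifit1* (1.41 carried against 0.960 measured) and *Rsad2* (5.62 against 5.93) were near or under the gauge. In Ctrl these 2 stood above it (1.98 against 4.83 and 6.73 against 10.5).

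Comparison of the libraries asked whether the members differed between cKO and Ctrl within each class. Over all genes with at least 20 UMIs, the median log2 ratio of cKO to Ctrl CPM was below 0 in all 6 classes compared, from -0.11 in HSC/MPP to -0.48 in mNeu, and 85.3% of genes in mNeu were below 0. The main ratios are therefore also given after median-of-ratios scaling, which sets that general shift to about 0. The scaling adds a constant to all ratios of a class, from 0.11 in HSC/MPP to 0.48 in mNeu, and is not in the ratios printed without it. Shares of all genes past 2-fold were computed without scaling only. Counts of members after scaling therefore have no background beside them. The plot of ratios shows the general shift as a dashed line.

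In mNeu, all 9 members were lower in cKO on the CPM scale, and their sum was 429 against 636 CPM, a log2 ratio of -0.57 (-0.64 to -0.50). After median-of-ratios scaling the sum was at -0.08, with 6 of 9 members below 0. The 4 members at least 2-fold lower were *Ifit1*, *Ifit2*, *Ifit3* and *Ifi47*, against 19.7% of 9196 genes 2-fold lower and 1.39% 2-fold higher. After scaling 3 of them were still past 2-fold, a scale on which the share of all genes was not computed. *Ifit3* stood at 40.9 and 13.2 CPM, a log2 ratio of -1.63 (-1.96 to -1.30), or -1.15 after scaling. *Ifit2* was at 5.54 and 1.64 CPM (-1.76, -2.75 to -0.80), from 26 and 16 UMIs. *Ifi47* was at 13.0 and 4.50 CPM (-1.53, -2.12 to -0.94).

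Markers of other cell types were also lower in the mNeu cells of cKO. Their summed levels in Ctrl and cKO mNeu were 557 and 47.6 CPM for erythroblasts, 705 and 28.9 for plasma cells, 1268 and 589 for ProNeu, 175 and 93.5 for monocytes and 227 and 191 for macrophages, and every other set was lower too except that shared by PreNeu and imNeu (23698 and 29444). Erythroblast markers were at 336 and 35.9 CPM in imNeu and 235 and 27.1 in PreNeu. Their part in the lower member levels was not tested.

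The other mNeu members were closer to the shift of all genes, and some lay above it. *Ifit1* stood at 35.8 and 16.5 CPM, with a ratio of -1.12 (-1.44 to -0.80) and -0.63 after scaling. *Isg15* was at 74.7 and 41.5 CPM (-0.85) and *Rsad2* at 122 and 65.6 CPM (-0.89). By contrast *Oasl2*, at 150 and 127 CPM (-0.24), *Rtp4*, at 142 and 119 (-0.25), and *Irf7*, at 52.8 and 40.2 (-0.39), lay above the median gene, and scaling put them at 0.24, 0.24 and 0.09. Within the list, the IFIT genes and *Ifi47* were thus lowest and *Oasl2*, *Rtp4* and *Irf7* highest. Per cell, the order of the sum turned, since cKO mNeu cells were deeper. It was 277 member UMIs per 100 cells in cKO and 172 in Ctrl, with *Oasl2* at 82.0 and 40.6. *Ifit2* (1.06 in cKO and 1.49 in Ctrl), *Ifit3* (8.53 and 11.0) and *Ifi47* (2.91 and 3.50) stayed lower in cKO.

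**Figure D2:**
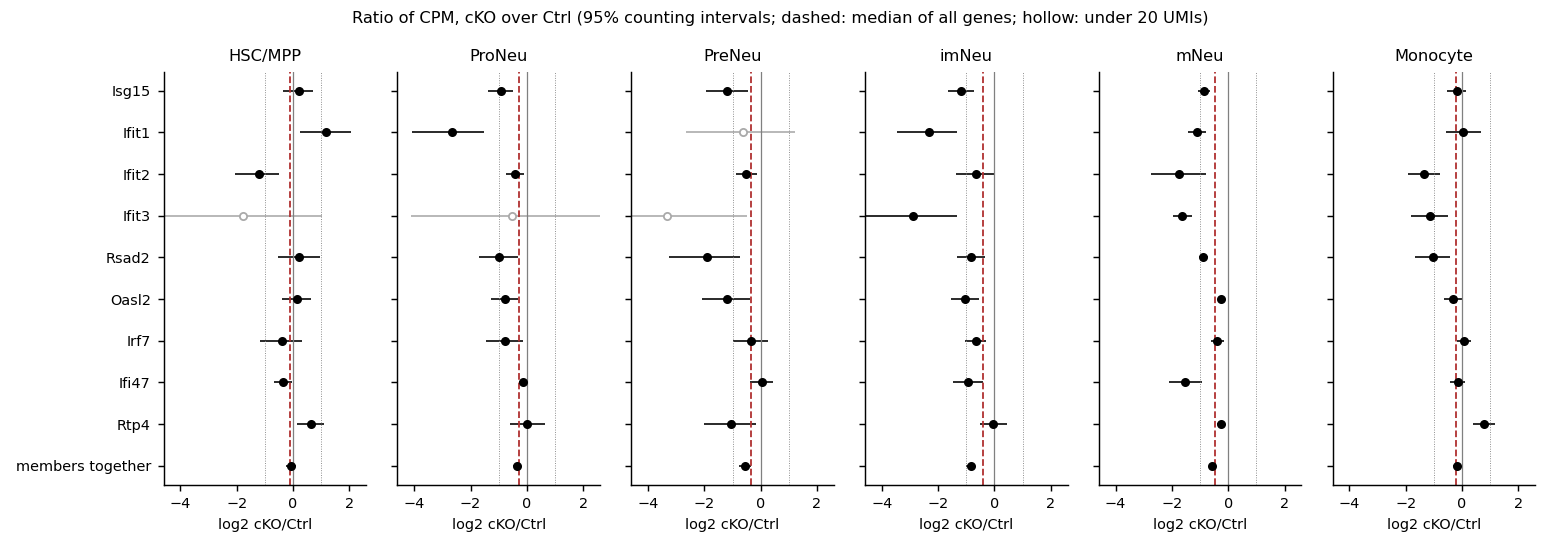
Log2 ratio of cKO to Ctrl CPM of each member and of their sum in 6 cell types, with 95% exact binomial intervals, the median of all genes (dashed red), 2-fold limits (dotted) and genes under 20 UMIs hollow. All 9 members lie left of 0 in imNeu and mNeu, where the median gene is also left of 0 (-0.41 and -0.48), and the sum in HSC/MPP lies at -0.07.

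In imNeu the sum was 84.0 CPM in Ctrl and 46.6 in cKO, a log2 ratio of -0.85 (-1.02 to -0.68) and -0.44 after scaling. It was the lowest of the 6 classes on both scales. A single Ctrl cell held 69 of the 608 Ctrl UMIs (11.3%), and neither the sum nor its rank was computed without that cell. All 9 members were below 0, as were 84.3% of 9730 genes, and 8 of the 9 stayed below 0 after scaling. The 4 past 2-fold were *Isg15*, *Ifit1*, *Ifit3* and *Oasl2*, against 13.8% of genes 2-fold lower and 0.822% higher. *Ifit1* was counted 35 times in Ctrl and 11 times in cKO (4.83 and 0.960 CPM, -2.33, -3.46 to -1.32), *Ifit3* 19 and 4 (-2.91, -4.93 to -1.32), and *Isg15* 102 and 71 (14.1 and 6.20 CPM, -1.18). *Ifit1* and *Ifit3* were the 2 members still past 2-fold after scaling, where the share of all genes was not computed. However, 1 Ctrl cell held 12 of the 19 *Ifit3* UMIs and 1 held 12 of the 35 *Ifit1* UMIs. Without the top cell of each library *Ifit3* had 7 and 3 UMIs, too few for a call, and *Ifit1* had 23 and 7 (-2.38, -3.84 to -1.11). By the *Retnlg* gauge above, *Ifit3* and *Oasl2* in both libraries, and *Ifit1* in cKO, were near or under the carried level. That gauge was too high for imNeu of cKO, so it does not settle how much of these levels was carried. *Rtp4* was at 8.70 and 8.47 CPM (-0.04).

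In PreNeu and ProNeu the counts of most members were small. The PreNeu sum was at -0.57 (-0.77 to -0.36), or -0.23 after scaling, and 4 of 7 members with enough UMIs were 2-fold lower (*Isg15*, *Rsad2*, *Oasl2* and *Rtp4*), against 6.58% of genes lower and 0.567% higher. Those 4 had between 8 and 24 cKO UMIs each, and all but *Isg15* were near the background given above. After scaling *Rsad2* was the one still past 2-fold, again with no share of all genes on that scale. *Ifit2*, at 12.8 and 8.97 CPM, had a ratio of -0.51 (-0.89 to -0.14) and *Ifi47* of 0.03 (-0.37 to 0.43). The ProNeu sum was at -0.37 (-0.48 to -0.25), or -0.08 after scaling, and 1 of 8 members was 2-fold lower, against 4.24% of genes lower and 0.9% higher. It was *Ifit1*, with 46 UMIs in Ctrl and 7 in cKO (2.59 and 0.407 CPM, -2.67, -4.06 to -1.51). A single Ctrl cell held 45.7% of these Ctrl UMIs, and without the top cell of each library the ratio was -2.28 (-4.02 to -0.87), from 25 and 5 UMIs.

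As whole classes, HSC/MPP and monocyte-like cells lay nearest to no difference. The HSC/MPP sum was 179 and 170 CPM, a log2 ratio of -0.07 (-0.26 to 0.11), and of 8 members 1 was 2-fold lower (*Ifit2*, 20.3 and 8.65 CPM, -1.23, -2.06 to -0.49) and 1 higher (*Ifit1*, 4.59 and 10.2 CPM, 1.15, 0.23 to 2.05, from 26 and 20 UMIs), against 4.41% and 1.38% of genes. *Rtp4* was at 18.7 and 29.0 CPM (0.63, 0.14 to 1.11). In monocyte-like cells the sum was at -0.19 (-0.30 to -0.07), or 0.03 after scaling, with 3 of 9 members 2-fold lower and none higher, against 6.99% and 1.03% of genes. They were *Ifit2* (19.6 and 7.73 CPM, -1.34), *Ifit3* (13.4 and 6.14, -1.13) and *Rsad2* (14.0 and 6.82, -1.04), and 1 cKO cell held 55.9% of the cKO *Ifit2* UMIs. Without the top cell of each library *Ifit2* was at -2.38 (-3.26 to -1.60). *Rtp4* was again higher in cKO, at 16.3 and 27.7 CPM (0.77, 0.38 to 1.16).

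Within clusters formed without the members, the sum was lower in cKO in 22 of 24 cluster and class pairs with at least 40 cells in each library. Over whole classes 60.2% (HSC/MPP) to 85.3% (mNeu) of genes were also below 0. After scaling, cluster 3 of HSC/MPP (0.31), 4 of ProNeu (0.03), 7 of PreNeu (0.06) and 38 of mNeu (0.58) were above 0. The rest were below 0, from -0.06 in clusters 16 and 27 of ProNeu to -2.14 in cluster 2 of imNeu. The ratios that follow are unscaled. Among mNeu cells, cluster 22 carried the highest level, at 1322 CPM in 503 Ctrl cells and 777 in 42 cKO cells (-0.77, -1.04 to -0.50). Its leading genes include *Il1b*, *Itgax*, the member *Ifit3* and its near copy *Ifit3b*. Related genes outside the members and lists, such as *Ifit1bl2*, a leading gene of cluster 21, were not removed before clustering. Clusters 21 and 23 gave -0.80 and -0.54, and cluster 31, with 70 Ctrl and 332 cKO cells, gave -1.84 (-2.12 to -1.55). Cluster 38, with 43 and 330 cells, gave 0.30 (-0.17 to 0.80), so the mNeu clusters did not all lie on one side. Cluster 24, with 462 cKO cells, held 13 Ctrl cells and was not compared. Cluster 9, which holds ProNeu and imNeu cells, and cluster 30 in imNeu had no marker of these classes among their 10 leading genes and 1 of another class, so these classes are best read by cluster. In imNeu the clusters ran from -2.39 (cluster 2, 107 and 11 UMIs) to -0.42, with -1.20 in cluster 30. In ProNeu, the 2 largest clusters of cells with ProNeu markers gave -0.36 and -0.56, and the cluster with few UMIs per cell gave -0.94 (-1.99 to 0.27). In monocyte-like cells cluster 5 gave 634 and 424 CPM (-0.58, -0.72 to -0.44), cluster 14 gave -0.64 (-1.06 to -0.23) and cluster 15 gave -0.22 (-0.61 to 0.16), all 3 below the class as a whole, though the interval of cluster 15 included its value.

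**Figure D3:**
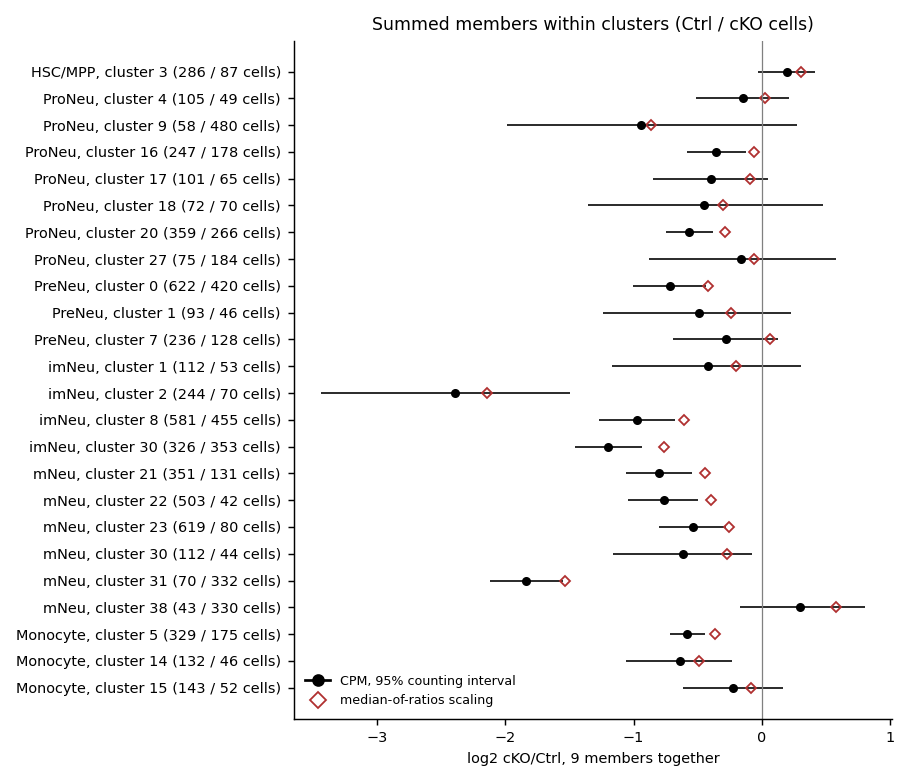
Log2 ratio of cKO to Ctrl for the summed CPM of the 9 members in each cluster of a class with at least 40 cells per library, with 95% exact binomial intervals (black) and after median-of-ratios scaling (red diamonds); cell numbers stand beside each cluster. Before scaling, cluster 3 of HSC/MPP (0.19) and cluster 38 of mNeu (0.30) lie right of 0, and cluster 2 of imNeu (-2.39) lies farthest left.

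Because mNeu cells differ in maturity, they were set in 3 bins of nearly equal size over both libraries by the share of their UMIs in *Camp*, *Ngp*, *Ltf* and *Lcn2*, granule protein transcripts that wane as neutrophils mature. The cKO cells lay more in the bin with most granule mRNA (40.1% against 27.5% of Ctrl cells) and less in the bin with least (27.5% against 38.4%). In Ctrl the summed members stood at 336 CPM (309 to 364) in the bin with most granule mRNA, 658 (616 to 701) in the middle and 945 (897 to 994) in the bin with least, and in cKO at 188, 501 and 814. The members were thus higher where granule mRNA was lower, in both libraries. The log2 ratios of cKO to Ctrl were -0.84 (-0.99 to -0.68), -0.39 (-0.51 to -0.27) and -0.22 (-0.32 to -0.12) in that order.

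Member by member, the bins split the list again. In the bin with least granule mRNA *Oasl2* stood at 243 CPM in Ctrl and 282 in cKO (0.21, 0.03 to 0.40) and *Rtp4* at 213 and 232 (0.12, -0.08 to 0.32), both above 0. *Ifit3* was lower in cKO in all 3 bins, with ratios of -3.02, -1.19 and -1.17 from most to least granule mRNA, and *Isg15* went from -1.47 over -0.89 to -0.18. *Rsad2* was at 82.8, 114 and 172 CPM in Ctrl, and in cKO at 33.9, 94.0 and 90.7, with no further increase in the last bin.

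**Figure D4:**
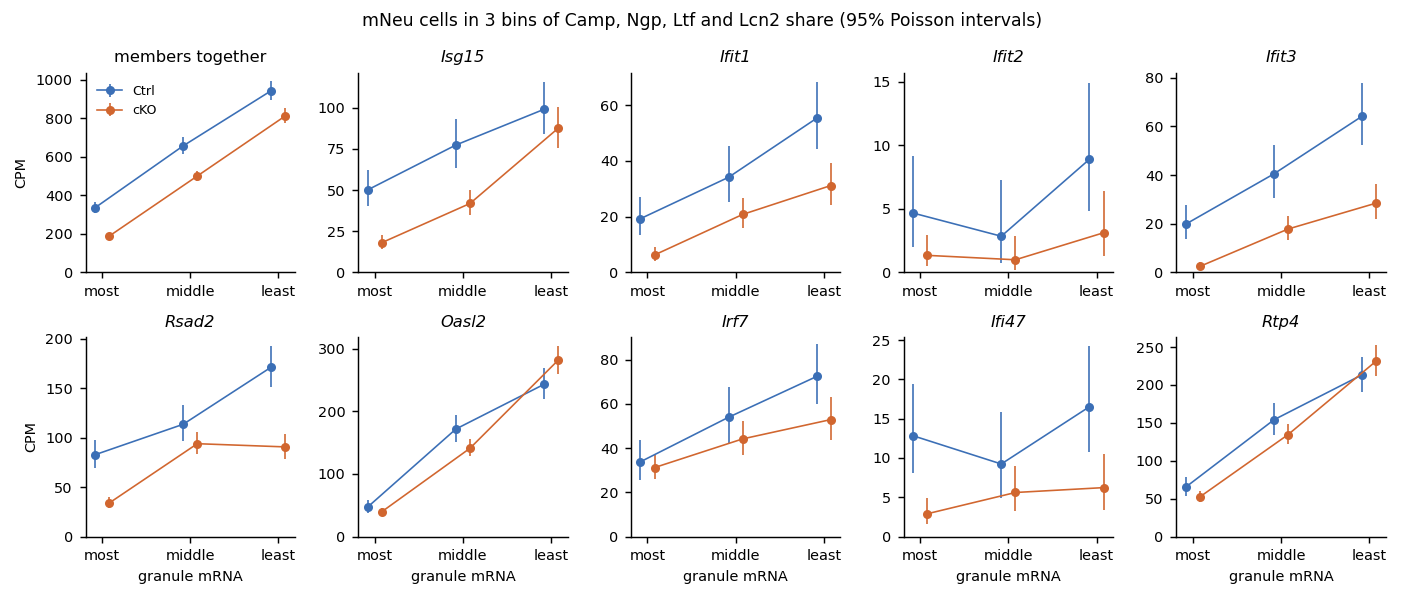
Level in CPM of the summed members and of each member in mNeu cells, in 3 bins of the share of UMIs from *Camp*, *Ngp*, *Ltf* and *Lcn2* (most, middle and least granule mRNA), Ctrl in blue and cKO in orange with 95% exact Poisson intervals. The sum goes from 336 to 945 CPM in Ctrl and from 188 to 814 in cKO, and *Oasl2* and *Rtp4* are above Ctrl in the last bin of cKO.

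To compare the share of cells with a member at equal depth, each cell was thinned to 1000 UMIs and shallower cells were left out. Any member was then found in 34.2% (31.9 to 36.6) of 1629 Ctrl mNeu cells and 29.2% (26.9 to 31.7) of 1447 cKO cells, against 53.0% and 61.8% before thinning, where cKO cells were deeper. PreNeu had the lowest thinned shares of the 6 classes and serves as the background type, with 3.77% and 3.51% thinned and 31.8% and 29.99% unthinned, at median UMIs of 10050 and 15482. Unthinned, imNeu was lower, at 24.7% and 26.8%. The mNeu shares lay far above those of both. Thinned shares were 16.9% and 15.2% in HSC/MPP, 7.53% and 7.88% in ProNeu, 7.42% and 4.65% in imNeu and 18.5% and 17.9% in monocyte-like cells, and in imNeu the intervals of the libraries overlapped narrowly (6.05 to 8.98 and 3.44 to 6.14). In mNeu they were apart at this depth but overlapped at 500 UMIs (19.2 to 23.1 and 15.6 to 19.5) and at 2000 UMIs (43.03 to 49.1 and 39.0 to 44.3). In mNeu *Oasl2* was found in 14.1% and 13.1% of thinned cells, *Rtp4* in 12.8% and 10.9%, *Ifit3* in 2.64% and 1.24% and *Ifit1* in 2.46% and 1.17%.

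In single cells, *Ifit1* and *Ifit3* transcripts were packed into few mNeu cells that also held the other members, and *Oasl2* and *Rtp4* less so. Thinned to 1000 UMIs, 74.4% of the *Ifit3* UMIs of Ctrl mNeu lay in the 6.38% of cells that held at least 3 UMIs of the other 8 members, and 62.5% lay in 3.73% of cells in cKO. The set of cells was drawn anew for each member from the other 8. For *Ifit1*, 64.2% and 60.9% of UMIs lay in 6.57% and 3.73% of cells. For *Oasl2*, 15.9% and 10.7% lay in 4.11% and 2.76% of cells, and for *Rtp4*, 18.3% and 15.1% in 4.67% and 2.76%. The sets of *Oasl2* and *Rtp4* were smaller, which limits the contrast. *Oasl2* was still detected in 44.8% (32.6 to 57.4) of such Ctrl cells against 9.61% (7.99 to 11.4) of cells with none of the other members. *Rtp4* was in 35.5% (24.9 to 47.3) against 8.61% (7.07 to 10.4). *Ifit3* was detected in 23.1% (15.4 to 32.4) of such Ctrl cells and in 0.649% (0.261 to 1.33) of cells with none of the other members. Its variance over the mean (Fano factor) was 3.29 in Ctrl, exceeded by 4 of 4990 genes at a median of 1.02, and 1.57 in cKO, exceeded by 12 of 3984. The Fano factors of *Oasl2* (1.40 in Ctrl) and *Rtp4* (1.30) were exceeded by 25 and 42 of the Ctrl genes and by 41 and 91 of the cKO genes.

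Without thinning, 57 mNeu cells of Ctrl (3.27%, 2.49 to 4.22) and 57 of cKO (3.77%, 2.87 to 4.86) held at least 5 of the 9 members, and these held 30.7% and 27.1% of the member UMIs of mNeu. Of monocyte-like cells, 31 (3.90%) and 26 (6.97%) did so, with 40.01% and 45.3% of the UMIs. These shares are not at equal depth, since the median cKO mNeu cell of this kind had 7662 UMIs and the median Ctrl one 2396. Over all mNeu cells the medians were 6135.5 and 2366. The part of depth in these counts was not tested. At 1000 UMIs per cell, at least 3 members were found in 62 Ctrl mNeu cells (3.81%, 2.93 to 4.85) and 31 cKO cells (2.14%, 1.46 to 3.03), in 16 of 761 (2.10%) and 1 of 329 (0.304%) monocyte-like cells, and in no ProNeu or PreNeu cell. At 2000 UMIs the mNeu shares were 7.63% and 5.96% and the monocyte shares 4.74% (3.30 to 6.55) and 3.99% (2.08 to 6.86), with overlapping intervals in both classes, and 3 Ctrl ProNeu cells reached 3 members.

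These cells were picked by the members' own counts, so only other genes describe them. They were compared with cells holding 0 or 1 member, for genes with at least 20 UMIs in each library over both sets of cells. Of 45 further interferon-stimulated genes in the matrices, 36 in mNeu and 38 in monocyte-like cells met this minimum. In mNeu 34 of the 36 were at least 2-fold higher in both libraries, against 1.53% of all genes compared. In monocyte-like cells 26 of the 38 were, against 1.97%. A sparse gene can reach the minimum through the picked cells alone, so the filter can raise these shares, which are descriptions. In monocyte-like cells *Clec4a3*, *Clec4a1*, *Hpgd*, *Ms4a8a* and *Fcgr1*, leading genes of cluster 5, also passed, while others of its leading genes, such as *Ace*, did not. *Cd74* (3.01 and 1.61) and *H2-Aa* (2.99 and 1.55) passed too. The members stood at 634 and 424 CPM in cluster 5, 107 and 68.7 in cluster 14 and 109 and 93.4 in cluster 15. The part of these clusters in the contrast was not tested. In mNeu *Ifit3b*, the near copy of *Ifit3*, led with log2 ratios of 6.45 in Ctrl and 8.22 in cKO. It shares 3′ sequence with *Ifit3*, so its counts are not independent of how the cells were picked. It was followed by *Slfn5* (5.53 and 5.99), *Oasl1* (4.33 and 5.39) and *Herc6* (5.25 and 4.41). The 2 that were not past 2-fold were *Samd9l* and *B2m*. *Usp18*, which blocks the interferon receptor from within the cell, was at 5.07 and 4.83 in mNeu and 4.07 and 3.90 in monocyte-like cells.

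Of the upstream genes, some were higher in these cells. Of the nucleic acid sensors and adaptors 4 of 6 in mNeu and 4 of 9 in monocyte-like cells were 2-fold higher in both libraries, in both classes *Zbp1*, *Ifih1*, *Ddx58* and *Dhx58*. None of the 6 receptor genes tested in mNeu, and none of 5 in monocyte-like cells, was 2-fold higher in both libraries. Among the signal transducers *Stat2* (2.95 in Ctrl and 2.08 in cKO) and *Irf9* (1.65 and 1.78), themselves interferon targets, were past 2-fold in mNeu. In monocyte-like cells *Stat2* was (2.58 and 1.74), while *Irf9* was at 0.10 and 0.98. The 15 cell cycle genes gave none in either class.

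**Figure D5:**
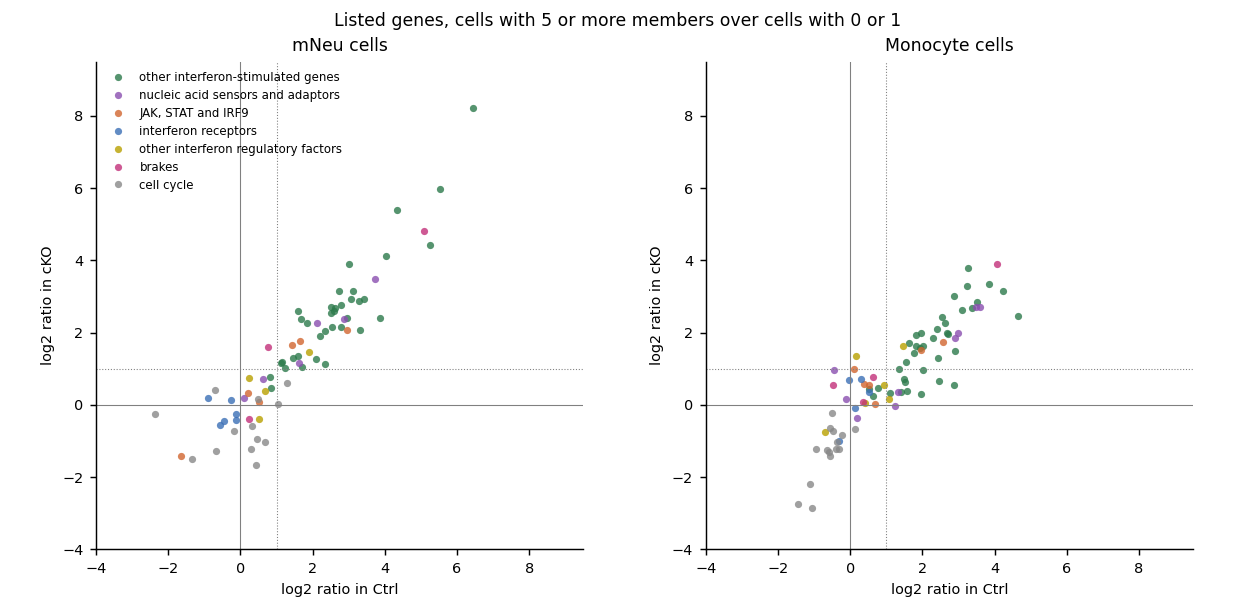
Log2 ratio of CPM in cells with 5 or more of the 9 members to cells with 0 or 1, Ctrl on the horizontal and cKO on the vertical axis, for genes of 7 fixed lists in mNeu (left) and monocyte-like cells (right), with dotted 2-fold limits. Other interferon-stimulated genes (green) lie past both limits for 34 of 36 in mNeu and 26 of 38 in monocyte-like cells, and receptors (blue) lie near 0. Genes shown had at least 20 UMIs in each library over both sets of cells. *Cenpf*, *Prc1* and *Ptpn2*, with no UMI in the picked mNeu cells of a library, are not drawn.

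Genes for the ligands were at the edge of detection. Over all kept cells *Ifnb1* had 1 UMI in Ctrl and 0 in cKO, *Ifna2* 4 and 0, *Ifnk* 0 and 1, and *Ifng* 7 UMIs in 5 Ctrl cells and 8 in 4 cKO cells, while *Ifna1*, *Ifna4*, *Ifne*, *Ifnl2* and *Ifnl3* had 0, which allows up to 3 UMIs each. The receptors were present in every class of the line and none was 2-fold different between libraries. In mNeu *Ifnar1* was at 44.7 CPM in Ctrl and 40.3 in cKO, *Ifnar2* at 89.6 and 75.7, *Ifngr1* at 72.8 and 86.4, *Ifngr2* at 131 and 140, *Il10rb* at 67.7 and 66.3 and *Ifnlr1* at 77.5 and 56.8. *Ifnlr1*, the type III interferon receptor, was higher in imNeu (49.6 and 40.3 CPM) than in monocyte-like cells (2.26 and 1.14). Its level in the other lineages was not examined.

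The signal transducers lay slightly below 0 in mNeu, like the median gene. *Jak1* stood at 298 CPM in Ctrl and 248 in cKO, *Tyk2* at 16.6 and 11.4, *Jak2* at 50.03 and 34.2, *Stat2* at 30.02 and 22.7 and *Irf9* at 86.4 and 67.5. Of these, *Irf9* was 2-fold lower in PreNeu (19.1 and 9.22 CPM, -1.05), and no other was past 2-fold in any of the 6 classes.

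The further interferon-stimulated genes, listed apart from the members, were 2-fold lower for 1 of 41 in HSC/MPP, 5 of 42 in ProNeu, 8 of 35 in PreNeu, 11 of 38 in imNeu, 7 of 40 in mNeu and 4 of 44 in monocyte-like cells, and none was 2-fold higher. Over all genes the 2-fold lower shares in that order were 4.41%, 4.24%, 6.58%, 13.8%, 19.7% and 6.99%, so 1 of 41 in HSC/MPP and 7 of 40 in mNeu were no more than the background. Their median log2 ratio was -0.73 in imNeu and -0.33 after scaling, whereas in mNeu it was -0.46 and 0.03 after scaling. In mNeu the lowest were *Ifi203* (8.52 and 0.512 CPM, -4.06), *Lgals3bp* (-2.06), *Ifi27l2a* (361 and 135 CPM, -1.42), *Ifit1bl1* (-1.42) and *Slfn8* (-1.15). In imNeu they were *Oasl1* (-2.47), *Lgals3bp* (-2.16), *Ifi203* (-2.12), *Slfn8* (-1.92) and *Gbp7* (-1.56). In PreNeu *Xaf1* (-2.82), *Ifi203* (-2.23), *Lgals3bp* (-2.03) and *Slfn8* (-1.89) were lowest, from under 4 CPM each in Ctrl, and in ProNeu *Phf11d* (-1.46), *Ifit1bl1* (-1.40), *Gbp2* (-1.39), *Oasl1* (-1.28) and *Slfn8* (-1.13).

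Among the regulators, *Irf8*, a factor that directs monocyte and dendritic cell fate, was lower in cKO in PreNeu (11.7 and 1.16 CPM, -3.33), imNeu (13.4 and 1.92, -2.80) and mNeu (20.4 and 3.28, -2.64), and *Irf5* in the same 3 classes (-1.83, -1.60 and -1.14). Summed monocyte markers were lower in the same classes, at 43.1 and 17.4 CPM in PreNeu, 57.7 and 23.2 in imNeu and 175 and 93.5 in mNeu, as were pDC markers (15.8 and 3.69 CPM in mNeu), and their part in this was not tested. Of the brakes on the pathway, *Socs3* was 2-fold higher in cKO in HSC/MPP, ProNeu, imNeu and monocyte-like cells, with ratios from 1.15 to 2.00. It stood at 0.451 and 1.69 CPM in ProNeu and 0.829 and 1.83 in imNeu. *Usp18* was lower in ProNeu (-1.11) and imNeu (-1.31), and *Socs1* (-1.47) and *Ptpn2* (-1.02) in mNeu. Of the sensors, *Cgas* was lower in imNeu (-1.22) and mNeu (-1.06) and *Zbp1* in imNeu (-1.01). All 15 cell cycle genes were 2-fold lower in cKO mNeu (median -1.56), led by *Prc1* (-2.11), *Cenpf* (-2.02) and *Mki67* (-1.95), so the mNeu class of Ctrl held more cycling transcripts. The part of this in the members' ratios was not tested.

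The genes whose pattern over the 20 points was most like that of the summed members, of 11113 compared and outside the 9, were *Itgax* (Pearson r 0.90), *Gcnt1* (0.90), *Resf1* (0.90), *D130062J10Rik* (0.88) and *Irf9* (0.88) on log2(CPM + 1). *Gcnt1* ran from 2.04 to 106 CPM and *Resf1* from 28.7 to 235 CPM over those points.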

How the data were processed

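Single-cell transcriptomes were taken from 1 Ctrl and 1 cKO library prepared with a droplet 3′ kit (BMKMANU DG1000). Raw UMI counts per gene and barcode were deposited by the authors as sparse matrices. The submitters' processing notes name Cell Ranger 5.0.0 and mm10. The study's methods filtered cells on genes detected and mitochondrial share and removed doublets with DoubletFinder, but the matrices hold the barcodes before that step, and no doublet caller was run here.

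Limits of 200 and 9000 genes per cell and of 30% mitochondrial UMIs were applied. A cell was gated to the marker set with the highest mean scaled log1p expression (at least 0.5, with 2 or more markers detected and a lead of 0.1 over the next), from 15 sets. Cells of the shared late-precursor set with at least 3 cell cycle UMIs and 0.2% of UMIs in those genes were called PreNeu, the others imNeu. Leiden clustering (scanpy 1.11.5, resolution 2, 30 components, 15 neighbours, 2000 variable genes, 40 clusters) left out the members and the pathway lists. UMIs were summed per class and library and given as CPM, and ratios used genes with at least 20 UMIs over both libraries. Python 3.11.15, numpy 2.4.6, scipy 1.17.1 and pandas 2.3.3 were used, with seed 1 for thinning. Ratio and interval code was tested on simulated counts. A threshold of 2-fold stands in for a test.

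All 9 members were named, with listed pathway genes past 2-fold in the neutrophil line (up to 5 per direction and class), every receptor and the listed signal transducers (1 of which is not reported here), and the 5 genes most like the summed members. *Mx1* and *Mx2* were not analysed here. Cell cycle genes named beyond that limit, and the genes named for the picked cells, were chosen after their values were seen. Members and lists were chosen with earlier results of these data known. The 5-member limit, the share with 3 or more members, single-cell concentration, granule mRNA bins, *Retnlg* gauge, erythroblast view, within-cluster ratios and the 500000-UMI minimum were set after member values had been seen, as were the alternatives without shared barcodes, without the cluster with few UMIs and without the top cell of a member. Alternatives covered depth minimums, gate margins, cluster-based classes, scaling, per-cell means, the UMI floor, the fold limit, thinning depth and leaving out each member.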

Additional observations from a re-analysis of the deposited data

Results flagged for a closer look

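For 2 members the intervals of the cKO to Ctrl ratio lay above 0 in one cell type and below 0 in another, so that the libraries stood in opposite order. *Ifit1* had a log2 ratio of 1.15 in HSC/MPP (26 UMIs in Ctrl and 20 in cKO) and of -2.67 in ProNeu (46 and 7 UMIs). In ProNeu 1 Ctrl cell held 45.7% of the Ctrl UMIs, and without the top cell of each library the ratios were 1.10 and -2.28. The *Ifit1* intervals also lay below 0 in imNeu (-2.33, 35 and 11 UMIs) and mNeu (-1.12, 168 and 161 UMIs). *Rtp4* had a log2 ratio of 0.63 in HSC/MPP (106 and 57 UMIs) and 0.77 in monocyte-like cells (108 and 122 UMIs), against -1.07 in PreNeu (32 and 17 UMIs). Its mNeu interval also lay below 0 (-0.25, 665 and 1164 UMIs), though scaling put that ratio at 0.24. Without the top cells the HSC/MPP ratio was 0.52, with an interval that reached 0. The PreNeu levels of *Rtp4*, 2.96 and 1.41 CPM, stood beside 2.04 and 1.84 CPM that carried-over mNeu transcripts would give by the *Retnlg* gauge. With 1 library per group the difference between cell types was not tested, and the intervals cover counting error only. The ratios are unscaled unless stated. The share of all genes with intervals on both sides of 0 was not computed, so this count of members has no background beside it.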

How the results depend on the processing

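No paired analysis was possible because each group had 1 library, and for the same reason no replicate could be left out. Of 120 recomputed summed ratios 113 kept their sign, and of 600 single ratios 568 did. Median-of-ratios scaling took the summed log2 ratio to -0.081 in ProNeu, -0.23 in PreNeu, -0.44 in imNeu, -0.083 in mNeu and, turning its sign, 0.0303 in monocyte-like cells. It turned *Ifi47* in ProNeu to 0.14 and, in mNeu, *Oasl2* to 0.24, *Irf7* to 0.0926 and *Rtp4* to 0.24, and left 1, 2 and 1 members 2-fold lower in PreNeu, imNeu and monocyte-like cells and 3, 6, 9 and 3 other pathway genes in ProNeu, PreNeu, imNeu and mNeu. The mean of per-cell proportions gave 0.0147 (sign turned) in PreNeu, -0.59 in imNeu, -0.69 in mNeu and -0.51 in monocyte-like cells. It turned *Oasl2* (0.75) and *Irf7* (0.30) in ProNeu, *Oasl2* (0.97) and *Rtp4* (0.58) in PreNeu and *Oasl2* (0.00778) and *Ifi47* (0.0641) in imNeu, with 1 member 2-fold lower in PreNeu and 0 higher in HSC/MPP. A minimum of 2000 UMIs per cell gave -0.29 in mNeu, with 2 members lower and *Oasl2* turned to 0.0465, and 4 members lower in ProNeu (3 at 1000 UMIs). Classes by cluster gave -0.66 in mNeu and -0.38 in monocyte-like cells, with 0, 5 and 2 members lower in HSC/MPP, ProNeu and imNeu. The wider gate margin gave -0.31 in monocyte-like cells and 4 members lower in ProNeu. Leaving out the cell with most UMIs of a member in each library took imNeu from 4 to 3 members lower. Without shared barcodes the mNeu ratio was -0.45, with 2, 1 and 1 members lower in ProNeu, PreNeu and monocyte-like cells, and 0 lower and 0 higher in HSC/MPP. ProNeu had 4 members lower without the cluster with few UMIs, and 2 without the 2% of cells with most UMIs. Without *Ifi47* the sum was -0.71 in ProNeu and -0.79 in PreNeu, and in mNeu it was -0.69 without *Oasl2* and -0.67 without *Rtp4*. A floor of 50 UMIs left 0 members higher in HSC/MPP and 2 lower in PreNeu and in imNeu, and no floor gave 2 lower in HSC/MPP. At 1.5-fold, 2 members were higher in HSC/MPP and 1 in monocyte-like cells, 5 lower in ProNeu and 8 in imNeu, and 15, 20, 27, 26 and 15 other pathway genes were lower in HSC/MPP, ProNeu, imNeu, mNeu and monocyte-like cells. The share of all genes past the limit was not computed at 1.5-fold or under the other alternatives. These counts therefore have no background beside them and are not read as results about the members. In ProNeu the log2 ratio of thinned shares, 0.07 at 1000 UMIs, was -0.56 at 500 and -0.41 at 2000. The cause of these shifts was not tested.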
